A study of Mus musculus with 18 samples.

Results

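The 39 genes described here encode proteins that bring long-chain fatty acids into heart muscle, activate them, carry them into mitochondria, oxidise them, store them in lipid droplets or handle the reactions alongside. They were taken by symbol from a written list, not by their values, and all 39 were found among the 24419 gene symbols of the table. All 39 also belonged to the 13333 symbols that reached 1 FPKM (fragments per kilobase of transcript, scaled to the number of mapped reads of the library, a level per gene length) in at least 1 mouse, and Angptl4 was the only one of them below 1 FPKM in every sham mouse. By role they were 6 genes of uptake, 7 of activation and the carnitine shuttle, 12 of beta-oxidation, 3 of electron transfer, 5 of uncoupling and thioester cleavage, 4 of the lipid droplet and 2 of ketone body use.

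A healthy adult heart takes most of its fuel from fatty acids. These reach the cardiomyocyte (CM) from albumin or from lipoproteins split by lipoprotein lipase, are bound to coenzyme A and then to carnitine, and enter the mitochondrion. There they are shortened by repeated rounds of dehydrogenation, hydration, dehydrogenation and thiolysis, and the electrons pass through the electron transfer flavoprotein to the respiratory chain. Many of these genes are known targets of the PPAR nuclear receptors, which bind fatty acids, and what the cell does not burn is stored as triglyceride in lipid droplets.

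The tissue came from 18 C57BL/6 mice, all 8 weeks old and, by the methods, male, in 6 groups of 3. Acute myocardial infarction (AMI) was made under pentobarbital anaesthesia by tying off the left anterior descending coronary artery near its origin. Heart tissue from the infarcted left ventricle was taken 10 min, 1 h, 6 h, 24 h or 72 h later. The remaining 3 mice were the controls, which the labels call only control and the study treats as sham animals. The labels give no time of sampling for them, and every AMI group was compared with these same 3 sham mice. The labels name no transgene, and there were as many mice as libraries. Values per mouse are listed in the order of the replicate numbers 1, 2 and 3.

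The libraries summed to between 542418 and 600467 FPKM, their relative depth lay between 0.814 and 1.32, and replicates of 1 group correlated at between 0.969 and 0.996 over tested genes. The summed level of 12 CM markers (contractile genes and the like, which define the labelled tissue) was 71786 to 76069 FPKM in sham mice, 45042 to 57285 at 24 h and 25559 to 32917 at 72 h. The 8 fibroblast markers summed to 409.9 to 477 FPKM in sham mice and 4349 to 5357 at 72 h, and 8 macrophage markers to 72.4 to 76.2 and 1801 to 2090.0. In whole tissue of this kind, fewer cells of a type and less RNA per cell cannot be told apart.

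RefSeq (GRCm38.p6) gave a promoter for 30 of the 39 genes, and 4 are shown because their genes ended in opposite directions after AMI. Ucp3 and Ucp2 lie in a row on chromosome 7 with 6905 bases between them, and Ucp3 was below sham at 72 h while Ucp2 was above it. Plin2, a lipid droplet coat gene, was above sham at 72 h and Acadm, a dehydrogenase gene of beta-oxidation, below. Each sequence runs 5′ to 3′ on the strand of the gene and ends just before the gene start as GENCODE M21 gives it, or up to 11 bases before it, and capitals mark AGGTCA, the half-site of nuclear receptors such as PPAR, or its complement TGACCT.
Ucp3, chr7:100472741-100472989, plus strand: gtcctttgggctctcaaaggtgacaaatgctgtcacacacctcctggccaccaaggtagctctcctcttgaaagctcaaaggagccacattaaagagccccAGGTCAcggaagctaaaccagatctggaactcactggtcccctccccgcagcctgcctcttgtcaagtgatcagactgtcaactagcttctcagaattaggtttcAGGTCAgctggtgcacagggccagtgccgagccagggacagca
Ucp2, chr7:100493108-100493336, plus strand: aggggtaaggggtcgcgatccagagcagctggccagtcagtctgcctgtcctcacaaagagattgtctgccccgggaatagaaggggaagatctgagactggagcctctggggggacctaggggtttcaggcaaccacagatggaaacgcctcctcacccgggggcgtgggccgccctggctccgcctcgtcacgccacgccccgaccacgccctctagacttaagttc
Plin2, chr4:86670061-86670309, minus strand: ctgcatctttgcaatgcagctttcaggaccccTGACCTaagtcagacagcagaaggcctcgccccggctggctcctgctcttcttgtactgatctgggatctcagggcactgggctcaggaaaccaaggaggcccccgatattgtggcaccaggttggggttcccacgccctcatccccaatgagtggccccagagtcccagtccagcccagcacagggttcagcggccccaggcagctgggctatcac
Acadm, chr3:153944644-153944893, minus strand: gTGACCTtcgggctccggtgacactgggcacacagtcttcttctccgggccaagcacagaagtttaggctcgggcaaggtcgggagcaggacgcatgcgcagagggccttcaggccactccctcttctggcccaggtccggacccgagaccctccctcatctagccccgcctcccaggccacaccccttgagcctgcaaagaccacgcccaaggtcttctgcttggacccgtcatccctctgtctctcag
The Ucp3 sequence held 2 forward half-sites, at bases 102 and 207, the Plin2 sequence 1 reverse half-site at base 33, the Acadm sequence 1 reverse half-site at base 2, and the Ucp2 sequence none. In the window from 250 bases before to 50 after the start, on either strand, the half-site stood in 9 of the 30 member promoters (30%) and in 4900 of all 27025 (18.1%), a count added after the values were seen. The exact repeat of the half-site after 1 base, the form searched for the PPAR element, was in none of the 30 and in 13 of all promoters (0.0481%). The exact ERR element TCAAGGTCA was in none of the 30 and in 126 of all (0.466%). At such low shares of all promoters none in 30 tells little, and inexact forms were not searched. The E-box CACGTG was in 2 of the 30, Plin2 and Slc27a1, and in 2187 of all (8.09%). These are matches of letters only, and the searches overlap, since the longer elements contain the half-site.

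In sham mice the mean levels ran from 0.43 ± 0.117 (SD, n = 3) FPKM for Angptl4 to 7389 ± 239 (SD, n = 3) for Fabp3, with Hadhb at 1774 ± 95.9 (SD, n = 3), Acsl1 at 1122 ± 13.8 (SD, n = 3) and Etfb at 1075 ± 19.1 (SD, n = 3) next below Fabp3. Across the time course the 39 genes gave no call at 10 min, 1 rise at 1 h, rises of 7 genes at 6 h with no falls, 15 falls at 24 h and 35 falls at 72 h. Each time point was tested against sham with limma on log2(FPKM + 1), adjusted over all tested genes, and a gene is called at an adjusted p under 0.05. Fold changes on that scale are written log2FC, with ± SE from limma. That SE rests on the spread of the 3 mice of each group, drawn toward a trend over all tested genes. At 10 min none of the 39 was called in either direction, where 0.248% of all tested genes were called higher and 0.0978% lower. At an unadjusted p under 0.05 there were 10 members higher and 1 lower, beside 8.7% and 6% of all genes. At 1 h 1 member was called higher and none lower, against 0.669% and 0.0526% of all genes. At 6 h 7 were called higher and none lower, a share of the members in the higher direction above the 11.6% of all genes and in the lower direction below the 16.8%. With median-of-ratios scaling all genes split 14.8% higher and 11.4% lower at 6 h, and the members 9 and 0. With quantile normalization, or without mouse 2 or mouse 3 of the 6 h group, 3 members were called lower at 6 h, beside 15.9%, 14.9% and 21.7% of all genes.

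At 24 h 4 members were called higher and 15 lower, where 26.2% and 11.4% of all genes were called, or 19.0% and 17.4% under median-of-ratios scaling. At 72 h 4 were called higher and 35 lower, so that none of the 39 stayed uncalled, and the background was 53.1% higher and 24.2% lower. The members' median log2 fold change was -0.47 at 24 h and -1.42 at 72 h, where the medians over all genes were 0.13 and 0.29 and those of the 12 CM markers -0.56 and -1.10. Scaling moved the 72 h median of all genes to 0.04 under median-of-ratios and to -0.10 under quantile normalization. With it the split of all genes moved to 39.3% higher and 35.7% lower, or 32.9% and 42.8%. The members' split at 72 h was 4 higher and 35 lower under each of them. At 24 h it became 3 higher and 23 lower under median-of-ratios scaling and 2 and 20 under quantile normalization, which split all genes 16.6% higher and 20.2% lower. Beside these falls, 12 of 12 CM markers were called lower at 72 h, and 8 of 8 pan-leukocyte, 8 of 8 macrophage and 8 of 8 fibroblast markers higher. Their part in the result was not tested.

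**Figure D1:**
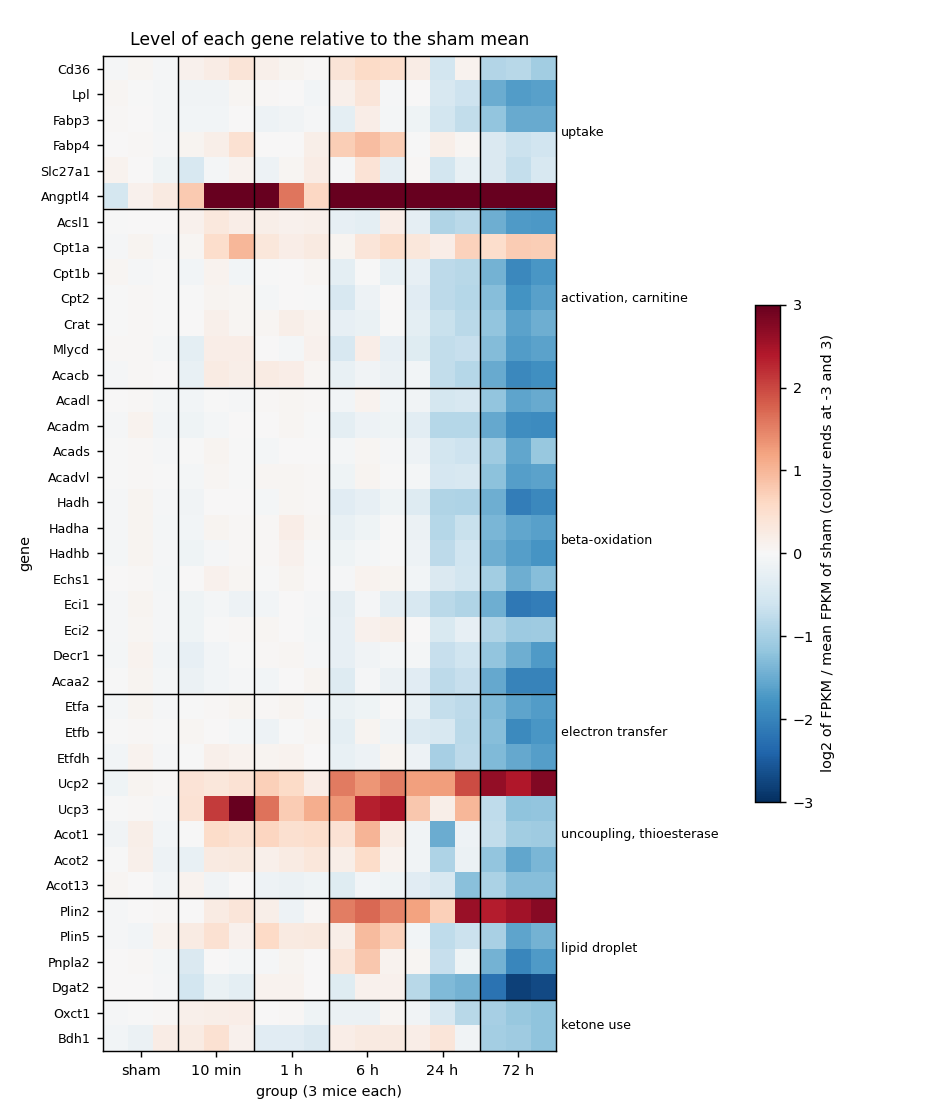
Each row is 1 of the 39 genes, ordered by role, and each column 1 of the 18 mice, and the colour gives the log2 of the mouse's FPKM over the sham mean, blue for lower and red for higher. The rows for Angptl4, Ucp2 and Plin2 turn red by 6 h and stay red, Cpt1a is pale red at 72 h, and the other 35 rows are blue in all 3 mice at 72 h.

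The time points were also tested against each other. From 6 h to 24 h 4 members were called lower (Fabp4, Ucp3, Plin5 and Dgat2) and none higher, beside 1.94% and 12.5% of all genes. From 24 h to 72 h 32 were called lower and 1 higher (Ucp2), beside 13.5% and 29.7%. From 6 h to 72 h 36 were called lower and 2 higher (Ucp2 and Plin2), beside 16.7% and 50.3%. The count of falls at 24 h rested on single mice more than the count at 72 h did. It was 27 without mouse 1 of the 24 h group, 9 without mouse 2, 2 without sham mouse 1 or sham mouse 2 and 6 without sham mouse 3. The share of all genes called lower moved with it, to 13.5%, 9.95%, 2.75%, 2.99% and 3.51% in that order. The count of rises at 24 h was 2 without any 1 of the sham mice, where all genes called higher came to between 9.47% and 12.4%. The falls from 6 h to 24 h ranged from 20 members, without mouse 1 of the 24 h group, to none without mouse 2 or 3 of the 6 h group or mouse 2 of the 24 h group. All genes called lower were 2.66% in the first of these settings, 0.0075% without mouse 2 or 3 of the 6 h group and 0.0375% without mouse 2 of the 24 h group.

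Among the uptake genes, Angptl4, a secreted inhibitor of lipoprotein lipase, had the largest fold rise of the 39 genes. Its level was 0.297, 0.474 and 0.518 FPKM in sham mice, 0.737, 3.83 and 10.4 in 10 min mice, 5.88, 1.3 and 0.658 in 1 h mice, 29.1, 44.1 and 21 in 6 h mice, 10.4, 6.77 and 50.5 in 24 h mice and 12.9, 15.5 and 18.3 in 72 h mice. All 9 mice from 6 h on lay above all sham mice, and the spread was wide at 10 min, 1 h and 24 h, where mouse 3 of the 24 h group was the highest of the 18. The rise was called at 6 h (log2FC 4.44 ± 0.24, adjusted p = 0.00015), at 24 h (log2FC 3.54 ± 0.64, adjusted p = 0.00893) and at 72 h (log2FC 3.52 ± 0.13, adjusted p = 7.32e-08). The ratio of mean FPKM to sham was 73.1 at 6 h and 36.2 at 72 h, larger than the log2 values show because the added 1 FPKM weighs on a gene that sham mice held under 1 FPKM. The 10 min difference did not pass (log2FC 1.68 ± 0.57, adjusted p = 0.256), and over the 15 alternatives its adjusted p ran from 0.0459, without mouse 1 of that group and the only one below 0.05, to 0.656. Angptl4 entered the tests through the AMI mice alone, since no sham mouse reached the 1 FPKM of the filter.

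Cd36 and Fabp4, a fatty acid translocase of the cell surface and a fatty acid binding protein known from endothelium, adipocytes and macrophages, were called higher at 6 h and lower at 72 h. Cd36 measured 395, 421 and 389 FPKM in sham mice, 526, 594 and 579.8 in 6 h mice, 469, 274 and 432 in 24 h mice and 217, 226 and 194 in 72 h mice. The 6 h mice all stood above sham and the 72 h mice all below, with the 24 h mice on both sides (log2FC 0.50 ± 0.07 at 6 h and -0.92 ± 0.08 at 72 h, adjusted p = 0.00438 and 1.06e-05). Fabp4 measured 827, 842 and 811 FPKM in sham mice, 1377, 1569 and 1382 in 6 h mice, 823, 933 and 861 in 24 h mice and 609.7, 528 and 558 in 72 h mice. The 6 h mice were again all above and the 72 h mice all below sham (log2FC 0.80 ± 0.08 at 6 h and -0.55 ± 0.08 at 72 h, adjusted p = 0.00094 and 0.000303). Beside the 6 h rise, of 10 endothelial markers 3 were called higher and 3 lower. Their sum was 734 to 784 FPKM in sham mice and 794 to 1001 at 6 h, and the part of these cells in the result was not tested. The 7 adipocyte markers summed to at most 3.47 FPKM in any mouse. Lep and Retn were at 0 in all 3 sham mice.

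Fabp3, the binding protein of heart muscle and the most abundant of the 39 transcripts per length, was at 7572, 7477 and 7118 FPKM in sham mice, 6751, 5058 and 4426 in 24 h mice and 3239, 2572 and 2589.6 in 72 h mice. Sham and 72 h mice were far apart, while at 24 h each mouse was below sham and the difference did not pass (log2FC -0.47 ± 0.18 at 24 h and -1.41 ± 0.13 at 72 h, adjusted p = 0.0716 and 1.67e-05). Lpl, the lipase that frees fatty acids from lipoproteins, measured 383, 365 and 353 FPKM in sham mice and 131, 114 and 119 in 72 h mice (log2FC -1.59 ± 0.08, adjusted p = 2.99e-07). Slc27a1, a fatty acid transport protein, had the smallest fall at 72 h, from 94.1, 88.7 and 80.2 to 65.2, 53.3 and 62.9 FPKM (log2FC -0.53 ± 0.09, adjusted p = 0.000847). Of the 6 uptake genes 3 were called higher at 6 h, beside 11.6% of all genes. At 72 h 1 of them was called higher and 5 lower, beside 53.1% and 24.2%, with a median log2 fold change of -0.73.

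**Figure D2:**
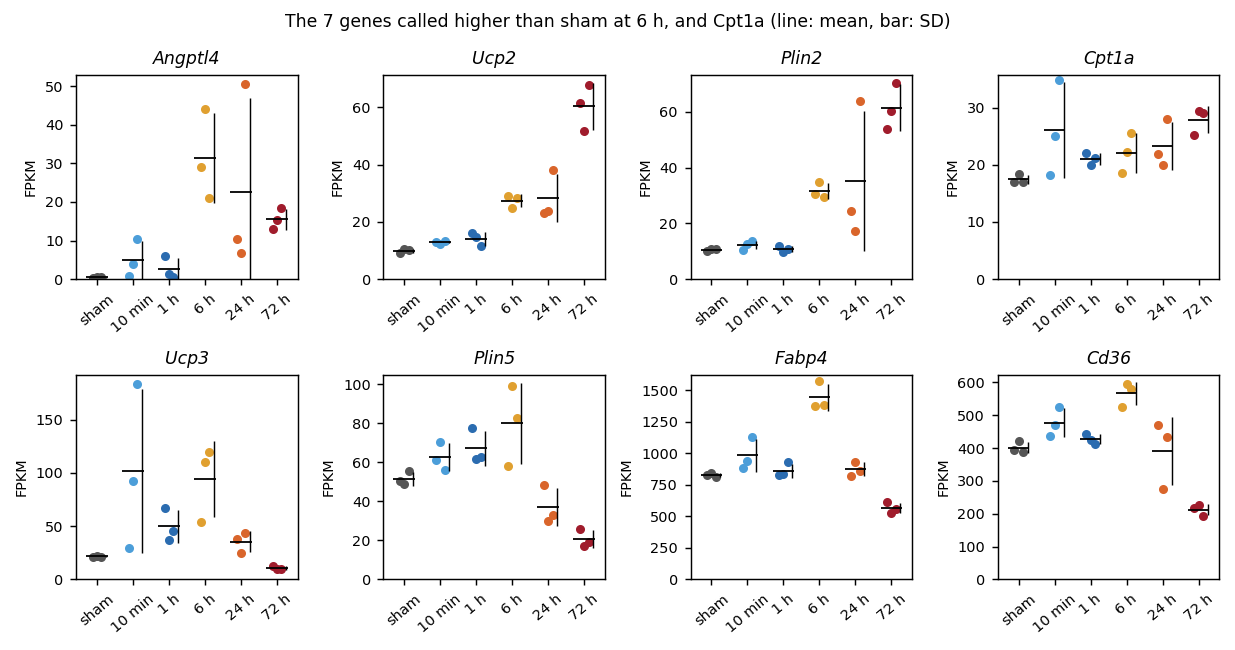
Points give the FPKM of each mouse in the 6 groups (linear axis from 0), the line the mean and the bar the SD, drawn no lower than 0, for the 7 genes called higher than sham at 6 h and for Cpt1a. Angptl4, Ucp2 and Plin2 are above sham in every mouse from 6 h on, Fabp4, Cd36, Ucp3 and Plin5 are highest or near their highest at 6 h and below sham at 72 h, and Ucp3 and Angptl4 scatter widely at 10 min.

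Of the 7 genes of activation and the carnitine shuttle, Cpt1a was called higher at 72 h and the other 6 lower, with a group median of -1.54. Of all genes 53.1% were called higher and 24.2% lower at that time. Cpt1a and Cpt1b encode the liver and muscle forms of carnitine palmitoyltransferase 1, the regulated step of mitochondrial entry. Cpt1a stood at 17, 18.4 and 16.9 FPKM in sham mice, 18.2, 25 and 34.9 in 10 min mice, 18.5, 22.3 and 25.5 in 6 h mice, 21.9, 19.9 and 28.1 in 24 h mice and 25.2, 29.4 and 29.1 in 72 h mice. The 72 h mice were close together and all above sham (log2FC 0.65 ± 0.08, adjusted p = 8.05e-05), and at 24 h the difference missed the threshold (log2FC 0.39 ± 0.13, adjusted p = 0.0555). Cpt1b went from 238, 225 and 226 FPKM in sham mice to 194, 133 and 129 in 24 h mice and 85.5, 59.8 and 68.3 in 72 h mice. Every 24 h and 72 h mouse was below every sham mouse, and both falls were called (log2FC -0.62 ± 0.16 at 24 h and -1.69 ± 0.12 at 72 h, adjusted p = 0.0241 and 2.71e-06). The level of Cpt1b is uncertain in part, since a read-through gene on the same strand shares 81.4% of its exon bases in GENCODE M21.

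Acsl1, which binds coenzyme A to long-chain fatty acids, measured 1108, 1122 and 1135 FPKM in sham mice, 936, 597 and 642 in 24 h mice and 407, 347 and 338 in 72 h mice (log2FC -1.62 ± 0.09, adjusted p = 7.45e-07). The sham mice differed little and the 3 mice at 72 h lay well below them. Cpt2, which returns the acyl group to coenzyme A inside the mitochondrion, and Crat, the carnitine acetyltransferase, fell by 72 h as well. Cpt2 went from 88.3, 90.3 and 87.4 to 36.4, 25.5 and 28.5 FPKM (log2FC -1.54 ± 0.12, adjusted p = 4.12e-06). Crat went from 125, 128 and 125 to 55.8, 41.5 and 45.5 FPKM (log2FC -1.40 ± 0.10, adjusted p = 3.5e-06). Acacb makes malonyl-CoA, the inhibitor of carnitine palmitoyltransferase 1, and Mlycd removes it. Acacb was at 54.6, 57.8 and 56.5 FPKM in sham mice and 19.6, 14.8 and 15.7 in 72 h mice (log2FC -1.71 ± 0.10, adjusted p = 9.66e-07). Mlycd was at 51.7, 51.7 and 49 and 20.5, 15.9 and 16.7 FPKM in the same mice (log2FC -1.48 ± 0.09, adjusted p = 1.49e-06). At 24 h Acsl1, Cpt1b, Cpt2, Crat and Mlycd were called lower, beside 11.4% of all genes, and Acacb was not (log2FC -0.55 ± 0.19, adjusted p = 0.0574).

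All 12 beta-oxidation genes and all 3 electron transfer genes were called lower at 72 h, where 24.2% of all genes were. Their log2 fold changes lay between -1.88 and -1.01 in the first group and between -1.63 and -1.50 in the second. Taken mouse by mouse, the median of the 12 genes was 97.9, 105 and 96.7% of the sham mean in the sham mice, 92.7, 98.8 and 100.1% in 10 min mice, 101, 104 and 101% in 1 h mice, 85.1, 97.6 and 96.6% in 6 h mice, 90.1, 60.2 and 65.5% in 24 h mice and 40.6, 32.6 and 31.6% in 72 h mice. The 3 mice at 72 h lay far below all others, and at 24 h mouse 1 remained close to the 6 h mice while mice 2 and 3 lay between. The role medians over genes were -0.47 and -0.57 on the log2 scale at 24 h and -1.50 and -1.52 at 72 h. No gene of either role was called at 10 min, 1 h or 6 h, and at 6 h 11.6% of all genes were called higher and 16.8% lower. At 24 h 6 of 12 and 3 of 3 were called lower, beside 11.4% of all genes. These 24 h calls rested on single mice, since only 2 of all 39 members were lower without sham mouse 1 or sham mouse 2.

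**Figure D3:**
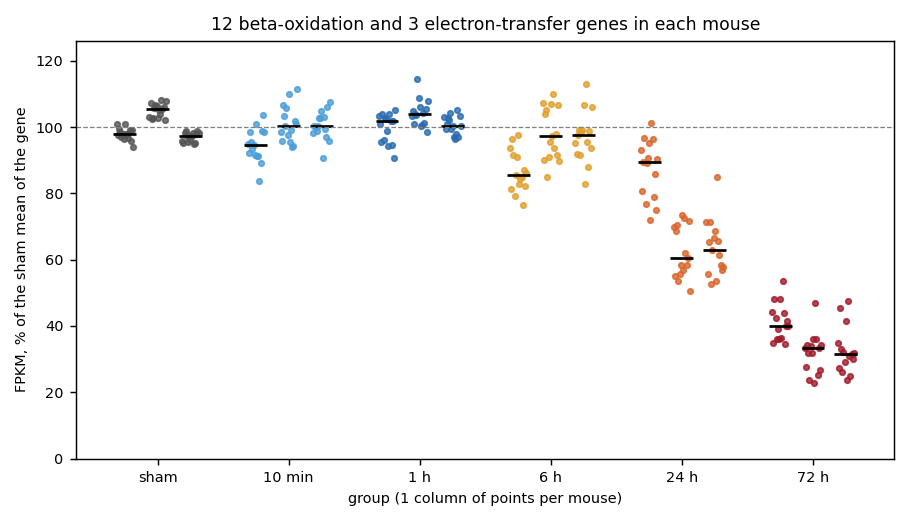
Each column of points is 1 mouse and each point 1 of the 12 beta-oxidation and 3 electron transfer genes, as a percentage of that gene's sham mean, with a line at the median of the 15. At 72 h every point lies below 60%, and at 24 h mouse 1 lies higher than mice 2 and 3.

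The 4 acyl-CoA dehydrogenase genes, which start each round and differ in the chain length they accept, were called lower together at 72 h. Acadm, for medium chains, measured 343, 377 and 334 FPKM in sham mice, 286, 316 and 323 in 6 h mice, 283, 193 and 196 in 24 h mice and 122, 96.7 and 95.7 in 72 h mice. The 24 h and 72 h mice lay below all sham mice (log2FC -0.67 ± 0.16 at 24 h and -1.74 ± 0.10 at 72 h, adjusted p = 0.0189 and 1.12e-06). Acadl, for long chains, went from 198, 203 and 188 to 86.8, 65.3 and 68.4 FPKM (log2FC -1.42 ± 0.11, adjusted p = 3.93e-06). Acads, for short chains, went from 40.4, 41.6 and 39.9 to 19.5, 13.9 and 18.5 FPKM (log2FC -1.20 ± 0.12, adjusted p = 1.84e-05). Acadvl, for very long chains, went from 370.2, 386 and 371 to 159, 119.9 and 124 FPKM (log2FC -1.49 ± 0.11, adjusted p = 3.24e-06). Acadvl shares 42.9% of its exon bases with Dvl2 on the other strand, whose own level was at most 8.42 FPKM, and the library kit as described does not tell the strands apart.

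Hadha and Hadhb encode the subunits of the mitochondrial trifunctional protein, which carries out the last 3 reactions on long chains. They lie head to head on chromosome 5 (GENCODE M21), Hadha from 30118304 to 30155162 on the minus strand and Hadhb from 30155248 to 30184593 on the plus strand, with 86 bases between their starts. Hadha measured 885, 963 and 863 FPKM in sham mice, 806, 502 and 568 in 24 h mice and 352, 307 and 292 in 72 h mice. Hadhb measured 1711, 1884 and 1726 FPKM in sham mice, 1608, 1035 and 1179 in 24 h mice and 639, 564 and 518 in 72 h mice, and all 24 h and 72 h mice were below all sham mice for both genes. Both fell at 72 h, with log2 fold changes of -1.51 ± 0.09 and -1.63 ± 0.10. The ratio of Hadha to Hadhb stayed between 0.478 and 0.563 in all 18 mice while Hadhb itself ranged from 518 to 1929 FPKM, a comparison chosen after the values were seen. The ratio of Etfa to Etfb, the subunits of the electron transfer flavoprotein, ranged more widely, between 0.538 and 0.796. Whether members that are not partners keep ratios as steady was not examined.

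The enzymes that handle unsaturated chains included both the deepest and the shallowest fall among the 12. Eci1, an enoyl-CoA isomerase of mitochondria, measured 438, 471 and 436 FPKM in sham mice, 323, 255 and 239.5 in 24 h mice and 162, 102 and 107 in 72 h mice, all AMI mice of both times lying below sham (log2FC -0.73 ± 0.13 at 24 h and -1.88 ± 0.16 at 72 h, adjusted p = 0.00791 and 9.22e-06). Eci2, an isomerase also found in peroxisomes, measured 128, 136 and 129 FPKM in sham mice and 70.0, 61.4 and 62.5 in 72 h mice (log2FC -1.01 ± 0.07, adjusted p = 2.85e-06). Decr1, the dienoyl-CoA reductase, went from 228, 255 and 224 to 104, 85.1 and 72.8 FPKM (log2FC -1.44 ± 0.12, adjusted p = 9.16e-06). Among the later steps, Echs1, the short-chain hydratase, went from 276, 281 and 263 to 131, 98.2 and 113 FPKM (log2FC -1.26 ± 0.10, adjusted p = 7.3e-06). Hadh, the next dehydrogenase, went from 191, 209 and 192 to 71, 46.9 and 51.5 FPKM (log2FC -1.81 ± 0.14, adjusted p = 4.58e-06). Acaa2, the thiolase that releases acetyl-CoA, went from 150.1, 159.6 and 144 to 52.2, 38 and 37.8 FPKM (log2FC -1.82 ± 0.12, adjusted p = 2.11e-06). Sham and 72 h mice did not overlap for any of these genes. Overlap was not counted over all tested genes, of which 53.1% were called higher and 24.2% lower at 72 h.

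Electrons from the dehydrogenases pass to Etfa and Etfb and from there through Etfdh to ubiquinone. Etfa went from 657, 727 and 672 FPKM in sham mice to 275, 228 and 216 in 72 h mice (log2FC -1.52 ± 0.10, adjusted p = 2.16e-06). Etfb went from 1067, 1097 and 1062 to 447, 286 and 323 FPKM (log2FC -1.63 ± 0.15, adjusted p = 1.41e-05). Etfdh went from 293, 336 and 306 to 124, 107 and 99.2 FPKM (log2FC -1.50 ± 0.10, adjusted p = 1.73e-06). Each of the 3 had every 72 h mouse below every sham mouse. A second annotated gene on the same strand shares 53% of the exon bases of Etfb, so its level is uncertain in part.

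Ucp2 and Ucp3, whose sequences before the start are shown above, encode carriers of the inner mitochondrial membrane. Ucp3 is known mainly from striated muscle and Ucp2 from many tissues, with high levels in immune cells. Ucp3 measured 21.5, 22.3 and 21.3 FPKM in sham mice, 29.4, 92.9 and 183 in 10 min mice, 67.3, 37.1 and 45.9 in 1 h mice, 53.7, 110.0 and 119 in 6 h mice, 38.1, 24.5 and 43.3 in 24 h mice and 12.9, 9.45 and 9.58 in 72 h mice. Every AMI mouse up to 24 h was above every sham mouse and every 72 h mouse below, and the 10 min mice spread widely, with mouse 3 the highest of the 18. The rise was called at 6 h (log2FC 1.99 ± 0.27, adjusted p = 0.00333) and at 24 h (log2FC 0.64 ± 0.20, adjusted p = 0.0399), and the fall at 72 h (log2FC -0.98 ± 0.11, adjusted p = 5.06e-05). At 10 min and 1 h it was not called (log2FC 1.83 ± 0.55 at 10 min and 1.13 ± 0.19 at 1 h, adjusted p = 0.207 and 0.0516), and over the 15 alternatives the 10 min adjusted p ran from 0.0189, without mouse 1 of that group and the only one below 0.05, to 0.434. The 1 h difference was called in 7 of its 15 alternatives, among them those without mouse 1 or mouse 2 of the 1 h group. The 24 h call was lost in 9 of 15, among them those without any 1 sham mouse or without mouse 1 or 3 of the 24 h group. In a single fit over all 18 mice, which takes 1 estimate of the spread from all groups, the 72 h fall was not called (adjusted p = 0.0695), nor was the 24 h rise.

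Ucp2 measured 8.99, 10.5 and 10.1 FPKM in sham mice, 13.1, 12.4 and 13.2 in 10 min mice, 16.2, 14.7 and 11.4 in 1 h mice, 29, 24.7 and 28.3 in 6 h mice, 23.2, 23.6 and 38 in 24 h mice and 61.6, 51.7 and 67.8 in 72 h mice. All AMI mice were above all sham mice at every time, and the 72 h mice were the highest of the 18. The call was made at 6 h (log2FC 1.38 ± 0.10, adjusted p = 0.000392), at 24 h (log2FC 1.40 ± 0.19, adjusted p = 0.00492) and at 72 h (log2FC 2.49 ± 0.10, adjusted p = 1.52e-07), and again from 24 h to 72 h (log2FC 1.10 ± 0.20, adjusted p = 0.00466). Over the same mice the 8 pan-leukocyte markers summed to 28.8, 28.9 and 33.1 FPKM in sham mice, 125, 44.9 and 74 in 6 h mice, 166, 167 and 385 in 24 h mice and 555, 568 and 610.2 in 72 h mice, and 8 of 8 were called higher at 24 h and at 72 h. The part of those cells in the Ucp2 result was not tested.

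Acot1 and Acot2, thioesterases that release free fatty acids from coenzyme A in the cytosol and in the mitochondrion, are near-identical paralogs 15617 bases apart on chromosome 12, and the division of reads between them is uncertain. Acot1 was the only member called at 1 h, at 60.5, 54.3 and 56.6 FPKM against 36.2, 43.7 and 36.8 in sham mice (log2FC 0.54 ± 0.08, adjusted p = 0.0332). That call was lost without any 1 of the 3 mice of the 1 h group or without sham mouse 1 or 3. Acot1 was at 52.8, 78.4 and 46 FPKM at 6 h, 36.1, 13.9 and 35.1 in 24 h mice and 23.4, 18.9 and 18.5 in 72 h mice, the last below all sham mice (log2FC -0.91 ± 0.11, adjusted p = 6.6e-05). Acot2 was at 45.5, 51.3 and 41.2 FPKM in sham mice and 20.1, 15.6 and 17.9 in 72 h mice (log2FC -1.32 ± 0.11, adjusted p = 7.49e-06). Acot13, a thioesterase of a separate family, was at 210.1, 204 and 189.5 and 104, 82.4 and 82.7 FPKM (log2FC -1.16 ± 0.10, adjusted p = 8.95e-06).

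Plin2 and Plin5 encode droplet coat proteins, the first found in most cells and the second in tissues that burn fat. Plin2 measured 10.3, 10.6 and 10.9 FPKM in sham mice, 12, 9.6 and 10.9 in 1 h mice, 30.5, 34.9 and 29.6 in 6 h mice, 24.4, 17.3 and 63.8 in 24 h mice and 53.8, 60.5 and 70.4 in 72 h mice. From 6 h on every mouse was above all sham mice, with mouse 3 of the 24 h group as high as the 72 h mice (log2FC 1.49 ± 0.09 at 6 h and 2.42 ± 0.10 at 72 h, adjusted p = 0.000233 and 1.11e-07). That mouse was also the highest of its group for Angptl4 and Ucp2. It had the lowest CM marker sum of its group (56676, 57285 and 45042 FPKM). Its neutrophil (216, 45.2 and 996 FPKM), macrophage (261, 256 and 577) and pan-leukocyte marker sums (166, 167 and 385) were the highest of the group. The part of these cells in the result was not tested. Without that mouse, the 24 h comparison with sham gave 3 members higher and 13 lower, beside 25.6% and 10.8% of all genes. Plin5 measured 50.3, 49 and 55.4 FPKM in sham mice, 58, 99.1 and 83 in 6 h mice, 48.6, 30.2 and 32.9 in 24 h mice and 26.1, 17.3 and 19.4 in 72 h mice. The 6 h mice lay above sham and the 72 h mice below (log2FC 0.59 ± 0.18 at 6 h and -1.28 ± 0.13 at 72 h, adjusted p = 0.046 and 3.18e-05), and the 6 h call was lost without any 1 sham mouse or without mouse 2 or 3 of the 6 h group.

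Dgat2, which makes triglyceride, had the deepest fall of the 39. It measured 315, 318 and 307 FPKM in sham mice, 215, 272 and 257 in 10 min mice, 243, 344 and 343 in 6 h mice, 176, 125 and 117 in 24 h mice and 66.9, 44.6 and 48.1 in 72 h mice. The 24 h mice were all far below sham and the 72 h mice lower still (log2FC -1.18 ± 0.15 at 24 h and -2.56 ± 0.14 at 72 h, adjusted p = 0.00439 and 5.31e-07). At 10 min the 3 mice were also below the sham mice, and the difference did not pass (log2FC -0.34 ± 0.08, adjusted p = 0.146). Pnpla2, the lipase that starts triglyceride breakdown, was at 274, 277 and 259.6 FPKM in sham mice, 349, 471 and 290.3 in 6 h mice and 101, 69.3 and 83.7 in 72 h mice. All 6 h mice were above sham without passing (log2FC 0.42 ± 0.16, adjusted p = 0.0869), and the 72 h fall was called (log2FC -1.68 ± 0.12, adjusted p = 3.69e-06).

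Oxct1, the rate-limiting enzyme of ketone body use in the heart, was at 767, 784 and 807 FPKM in sham mice, 731, 563 and 440.2 in 24 h mice and 391, 356 and 342 in 72 h mice (log2FC -1.11 ± 0.08, adjusted p = 3.13e-06). Bdh1, which interconverts the ketone bodies, was at 72.4, 67.8 and 89.9 FPKM in sham mice, 60.3, 60.1 and 56.5 in 1 h mice, 88.6, 99.2 and 70.7 in 24 h mice and 38, 36.5 and 33.1 in 72 h mice (log2FC -1.07 ± 0.11, adjusted p = 2.51e-05). Sham and 72 h mice did not overlap for either gene, and neither was called at 24 h.

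The CM markers fell too, and each member was therefore also measured relative to them, as its log2(FPKM + 1) minus the mean of the 12 CM markers in the same mouse. On this scale the median of the 39 genes at 72 h was -0.06 and that of all genes 1.64. At 6 h 13 members were called higher and none lower, beside 16.5% and 4.88% of all genes. At 24 h 7 were called higher and 1, Dgat2, lower, beside 69.4% and 1.17%. At 72 h 11 were called higher and 11 lower, beside 94.4% and 1.06%, and 17 were not called. These counts moved with single mice. The 72 h falls went to 6, 4 and 6 without sham mouse 1, 2 and 3, and the 72 h rises to 7 without sham mouse 1, where between 0.675% and 0.863% of all genes were lower and 92.8% higher. The 6 h rises went to 6 and 8 without sham mouse 1 and 3, beside 5.65% and 7.48% of all genes. The 24 h rises went to 18 without mouse 2 of the 24 h group, beside 68.3%. The 11 lower relative to the CM markers were Acsl1, Cpt1b, Acacb, Acadm, Hadh, Hadhb, Eci1, Acaa2, Etfb, Pnpla2 and Dgat2. The 11 higher were Cd36, Fabp4, Slc27a1, Angptl4, Cpt1a, Eci2, Ucp2, Ucp3, Acot1, Plin2 and Oxct1. Among the lower ones the differences were small except for Dgat2, from -0.27 ± 0.11 for Acsl1 and -0.39 ± 0.13 for Acadm to -0.53 ± 0.13 for Eci1 and -1.20 ± 0.13 for Dgat2 on the log2 scale. On this scale the 12 CM markers themselves ran from -0.69 to 0.48 at 72 h, with 6 called higher and 4 lower. At 24 h 3 of them were called higher and 3 lower, and at 6 h 0 and 0. Among the lower members at 72 h only Dgat2 lay outside that range, and among the higher ones Cd36, Eci2, Ucp3, Acot1 and Oxct1 lay inside it. The direction of the smaller differences depended on the scaling. With quantile normalization 4 members were higher and 31 lower at 72 h, beside 67.4% and 9.91% of all genes, and the members' median was -0.80. In that setting Cd36, Eci2, Ucp3, Acot1 and Oxct1 turned from higher to lower.

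**Figure D4:**
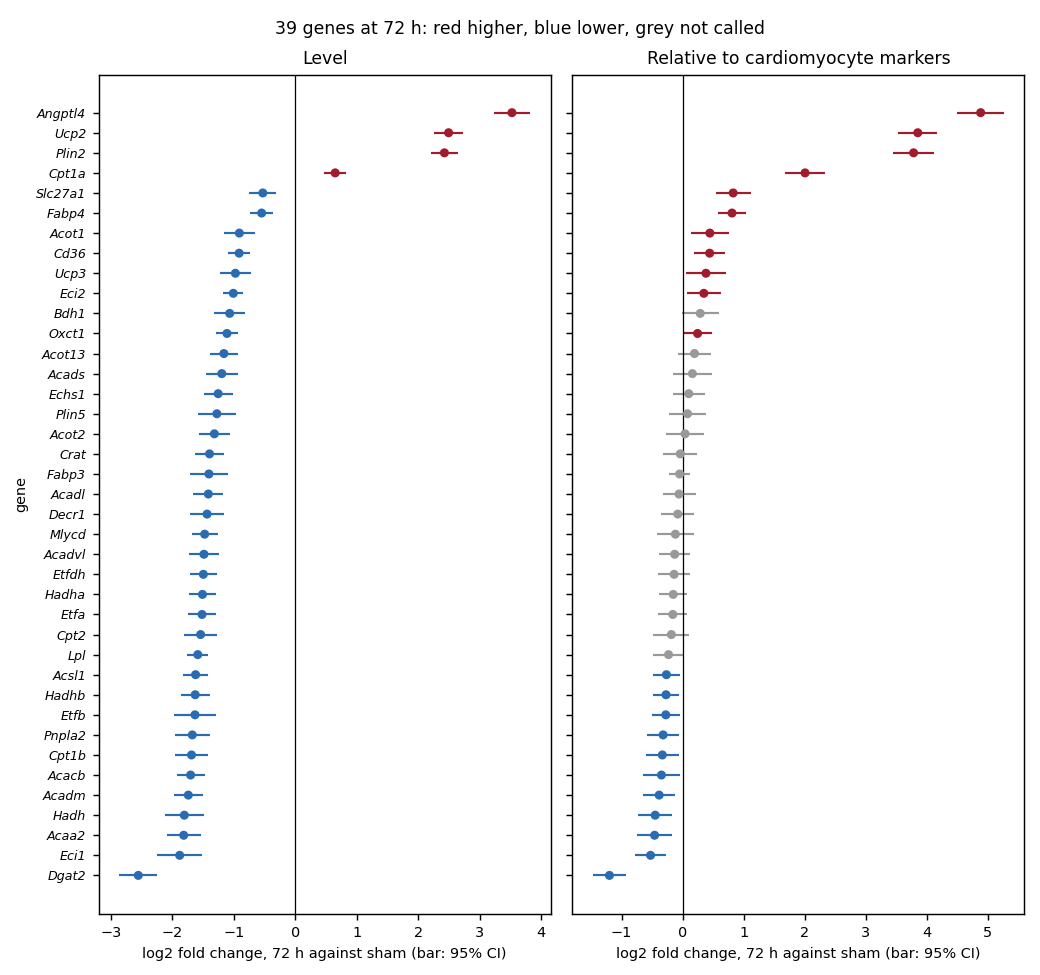
Points give the log2 fold change of each of the 39 genes at 72 h against sham and bars its 95% confidence interval from limma, on the left for the level and on the right relative to 12 CM markers, with red for called higher, blue for called lower and grey for not called. On the left 35 genes lie below 0, and on the right most of them lie near 0, with Dgat2 lowest and Angptl4, Ucp2, Plin2 and Cpt1a highest in both, while with quantile normalization 31 genes are lower on the right-hand scale.

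Within a mouse, ratios of FPKM compare genes of like function per length without reference to other genes. The ratio of Cpt1a to Cpt1b was 0.0712, 0.0818 and 0.0749 in sham mice, 0.113, 0.15 and 0.218 in 24 h mice and 0.295, 0.491 and 0.426 in 72 h mice. Each 72 h mouse was above each 24 h mouse, and these above sham. The ratio of Ucp2 to Ucp3 was 0.419, 0.469 and 0.474 in sham mice, 0.445, 0.134 and 0.072 in 10 min mice and 4.78, 5.47 and 7.07 in 72 h mice, so Ucp3 was the more abundant transcript in sham mice and Ucp2 at 72 h. The ratio of Plin2 to Plin5 was 0.204, 0.217 and 0.196 in sham mice, 0.527, 0.352 and 0.356 in 6 h mice and 2.06, 3.49 and 3.62 in 72 h mice, and here too the order of the 2 genes was opposite at 72 h. The ratio of Fabp4 to Fabp3 was 0.109, 0.113 and 0.114 in sham mice, 0.227, 0.185 and 0.194 in 6 h mice and 0.188, 0.205 and 0.216 in 72 h mice. For these 4 ratios the 72 h and sham mice did not overlap. The log2 differences were 2.38, 3.65, 3.85 and 0.86, and the exact two-sided permutation p was 0.1 in each, the smallest that 3 against 3 mice can give (adjusted p = 0.136 over 30 such tests). The ratio of Acacb to Mlycd differed by less, with a log2 difference of -0.24 at 72 h and a p of 0.1 in the exact permutation test.

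**Figure D5:**
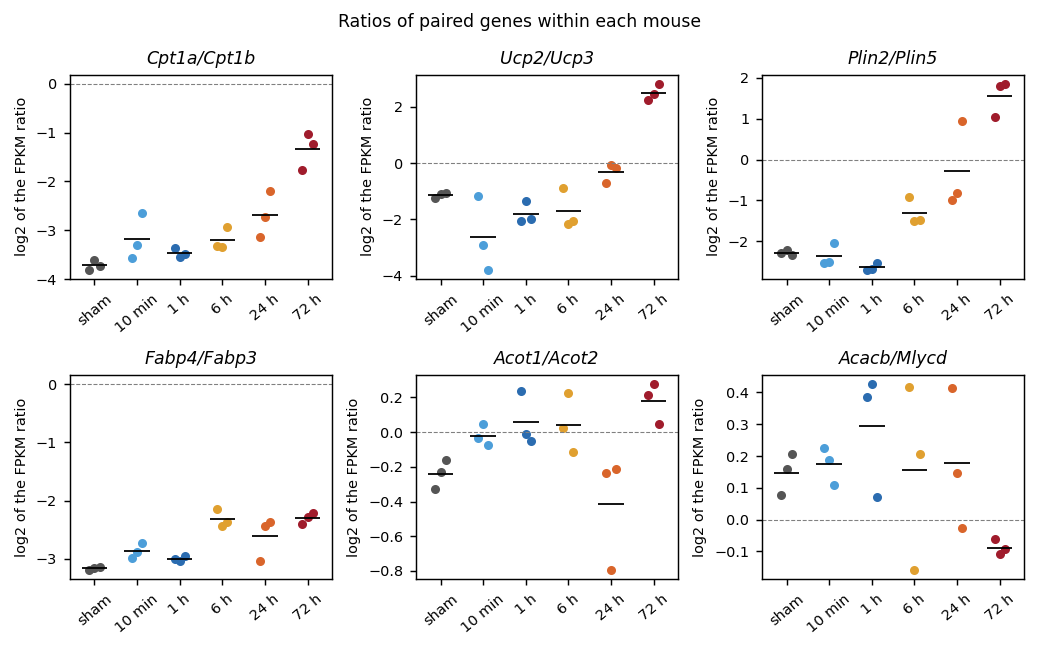
Points give the log2 of the ratio of 2 genes' FPKM in each mouse, with a line at the group mean and a dashed line at equal levels, and the axis range differs between panels. Ucp2 to Ucp3 and Plin2 to Plin5 cross the line of equal levels by 72 h, and Cpt1a to Cpt1b moves up toward it without reaching it.

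Of 72 further genes listed for lipid handling and adjoining fuel pathways, 64 were tested. Called higher were 14 of them at 6 h, 9 at 24 h and 14 at 72 h, beside 11.6%, 26.2% and 53.1% of all genes. Called lower were 8, 17 and 40 at the same times, beside 16.8%, 11.4% and 24.2%, with a median log2FC of -0.54 at 72 h. The largest rise at 6 h was that of Pdk4, a kinase that turns off pyruvate oxidation, at 118, 95.2 and 77.6 FPKM in sham mice and 1567, 1921 and 1531 in 6 h mice (log2FC 4.11 ± 0.16, adjusted p = 4.6e-05). Next came Hilpda, a droplet protein that inhibits the lipase encoded by Pnpla2 (log2FC 2.07 ± 0.14, adjusted p = 0.000313), and Plin4, another droplet coat (log2FC 1.30 ± 0.12, adjusted p = 0.000949). Scd2, a desaturase (log2FC -1.23 ± 0.18, adjusted p = 0.00393), fell the most at 6 h, before Decr2, a peroxisomal reductase (log2FC -0.77 ± 0.09, adjusted p = 0.00173), and Crot, a carnitine acyltransferase of peroxisomes (log2FC -0.55 ± 0.16, adjusted p = 0.042). At 24 h Hilpda, Acot9 and Acsl4 led the rises with log2 fold changes of 2.13, 1.02 and 0.80, and Acad11 and Vldlr were among the largest falls with -1.01 and -0.94. Hilpda scattered widely at 24 h, at 45.4 ± 48.1 (SD, n = 3) FPKM, and was called narrowly (log2FC 2.13 ± 0.68, adjusted p = 0.0461). At 72 h Fabp5, a binding protein of epidermis and macrophages, was at 88.3, 59.2 and 82.3 FPKM in sham mice and 695, 714 and 820.2 after AMI (log2FC 3.28 ± 0.15, adjusted p = 1.98e-07). Scd2 and Acsl5 were the next largest rises (1.87 and 1.45). Ech1, a dienoyl-CoA isomerase (log2FC -1.79 ± 0.14, adjusted p = 4.16e-06) and Ivd, a dehydrogenase of leucine breakdown (log2FC -1.55 ± 0.11, adjusted p = 2.53e-06), were among the largest falls.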

How the data were processed

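Poly(A) RNA from heart tissue of 18 mice was sequenced by the authors. Per their methods and processing notes, reads were trimmed with cutadapt (1.18), mapped to mm10 with HISAT2 (2.1.0) and quantified with StringTie (1.3.4d), and the deposited table gives FPKM per gene symbol, the unit of all values here. Its annotation is not given in the sources used here. The file's name says RPKM and its header FPKM. Headers of the 1 h mice carry a letter l for the digit 1 and that of 6 h mouse 2 an n for h, and they were matched to the sample titles. FPKM give no read totals, so relative depth was estimated from the smallest FPKM steps, and no counting intervals can be given.

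Genes with 1 FPKM in at least 1 mouse were tested with limma 3.58.1 (R 4.3.3, trended moderation) on log2(FPKM + 1), which understates changes of low genes, using the 6 mice of each comparison, with Benjamini-Hochberg adjustment. The fit was tested on simulated data. The limma p-values and SE measure the spread between 3 mice a group after it was drawn toward a trend over all tested genes. Non-overlap of mice is given as description and was not counted over all tested genes. Ratios of FPKM were compared by exact permutation. Values relative to CM markers subtract the mean of 12 contractile and related genes. All 39 members are named. Of the other pathway genes, the 3 largest called rises and falls without overlap with sham at 6 h, 24 h and 72 h are named, except 1 item that is not reported here. The members, lists and markers were chosen with earlier results of these data known. Gene positions are from GENCODE M21 and promoters from RefSeq. Alternatives covered the pseudocount, filter, scaling, a joint fit, the replicate block, the variance trend and each mouse left out. Figures were drawn with matplotlib 3.10.9.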

Additional observations from a re-analysis of the deposited data

Results flagged for a closer look

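This search took in 6 h, 24 h and 72 h only, and so left out Acot1, called higher at 1 h and lower at 72 h. For 4 genes the difference from sham was called in one direction at 6 h or 24 h and in the other at 72 h. For each of them the test of the later against the earlier time point itself passed. The share of all tested genes that changed direction in this way was not counted. Whether 4 genes is more than that share would give is therefore not known. All 5 differences below are log2 fold changes from limma, the later minus the earlier time point, with 3 mice in each group and no overlap between them. For Cd36 the difference from 6 h to 72 h was -1.41 (adjusted p = 1.04e-05), and for Fabp4 it was -1.35 (adjusted p = 1.73e-05). For Plin5 it was -1.87 (adjusted p = 0.000115), with a 6 h rise that was lost without any 1 sham mouse. For Ucp3 it was -2.97 from 6 h to 72 h (adjusted p = 4.35e-05) and -1.62 from 24 h to 72 h (adjusted p = 0.00123). The Ucp3 rise at 24 h was lost without any 1 sham mouse, and its 72 h fall was not called in the single fit over all 18 mice. CM markers fell over the same interval, 12 of 12 being called lower from 6 h to 72 h, and their part in these results was not tested. Single far values within a group were not searched for, since groups of 3 are too small for it.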

How the results depend on the processing

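Of the member calls, 38 of 39 at 72 h were kept in every alternative, 6 of 7 at 6 h, 4 of 19 at 24 h, 27 of 33 from 24 h to 72 h and 36 of 38 from 6 h to 72 h. Neither the 1 call at 1 h nor any of the 4 calls from 6 h to 24 h was kept in every alternative, each count kept being 0. The cause of the changes below was not tested. At 1 h the 1 member called higher became 2 with a pseudocount of 0.1, with a filter on the mean, or with same-sum, median-of-ratios or quantile scaling, and 0 with no filter, a joint fit of 18 mice, the replicate block or no variance trend, and 0 to 1 with a mouse left out. Of all genes, 0.684% to 0.775% were called higher at 1 h where the count was 2. The share was 0.373% to 0.594% where no filter, the joint fit, the block or no trend gave 0. With a mouse left out it was 0.504% to 1.11%. At 10 min the count was 0 to 2 with a mouse left out, beside 0% to 0.354% of all genes called higher. At 6 h members lower were 1 with same-sum scaling, 3 with quantile normalization and 0 to 3 with a mouse left out. All genes called lower there were 17.6%, 15.9% and 6.4% to 21.7%, in that order. At 24 h members higher were 2 with no filter or quantile normalization and 2 to 5 with a mouse left out. All genes called higher were 16.6% in each of the first settings and 9.47% to 30.3% with a mouse left out. Members lower at 24 h were 23 with median-of-ratios scaling, 25 in the joint fit and 2 to 27 with a mouse left out. The shares of all genes were 17.4%, 15.4% and 2.75% to 13.5%. From 6 h to 24 h members lower were 2 with no filter, 29 in the joint fit, 0 with the block and 0 to 20 with a mouse left out. Lower among all genes were 0.718%, 7.52%, 0% and 0.0075% to 2.66%, in that order. From 24 h to 72 h members higher were 2 in the joint fit, 2 with the block and 1 to 4 with a mouse left out. Beside them 35.9%, 28.5% and 21% to 36.1% of all genes were called higher. Relative to CM markers, members higher at 6 h were 8 in the joint fit and 6 to 12 with a mouse left out, members higher at 24 h 7 to 18, and members lower at 24 h were 5 with quantile normalization. The same calls took in 9.38% and 5.65% to 26.3% of all genes at 6 h. At 24 h they took in 39.7% to 74.3% and 5.63%. At 72 h members higher were 4 with quantile normalization and 7 to 13 with a mouse left out, and members lower 31 with quantile normalization, 7 with no variance trend and 4 to 13 with a mouse left out. Higher among all genes were 67.4% and 92.8% to 95.4%, and lower 9.91%, 0.938% and 0.675% to 1.31%. Quantile normalization turned 11 relative values at 72 h to the other sign, namely Acads -0.75, Acot1 -0.45, Acot13 -0.54, Acot2 -0.86, Bdh1 -0.54, Cd36 -0.27, Echs1 -0.60, Eci2 -0.39, Oxct1 -0.34, Plin5 -0.80 and Ucp3 -0.59. Angptl4 from 24 h to 72 h was 0.80 without mouse 3 of the 24 h group and -0.57 without mouse 2. Same-numbered mice deviated together by correlations between -0.33 and 0.41, and in no comparison were all above 0.1, so numbers were not taken as pairs. The replicate block gave 8 higher at 6 h, 4 higher and 13 lower at 24 h, and 4 higher and 35 lower at 72 h. In that order the shares of all genes were 9.47%, 22.3%, 9.09%, 52.7% and 23.9%. The read totals of the libraries are unknown, so counting error could not be separated from differences between mice.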

Other observations

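The 10 min mice differed from each other in a set of genes that was picked out after their values were seen. Ucp3 (29.4, 92.9 and 183 FPKM), Angptl4 (0.737, 3.83 and 10.4), Cpt1a (18.2, 25 and 34.9) and, outside the 39 genes, Pdk4 (144, 381 and 574) were all lowest in mouse 1 and highest in mouse 3, and sham mice lay at 21.3 to 22.3, 0.297 to 0.518, 16.9 to 18.4 and 77.6 to 118 FPKM. Pdk4 at 10 min did not pass the test (log2 fold change 1.72 ± 0.44 SE, adjusted p = 0.165 by limma). The beta-oxidation genes of the same mice stayed near sham, with a median of 92.7, 98.8 and 100.1% of the sham mean, in the same order of mice. That order also held in other members, among them Cd36, Fabp4, Acadm, Hadhb and Plin2, and not in others such as Acsl1 and Cpt1b. The share of all genes with that order was not counted.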
